A study of Mus musculus with 16 samples.

Results

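The 91 genes described here encode the subunits of oxidative phosphorylation, the 4 electron-carrying complexes and the ATP synthase (complex V) of the mitochondrial inner membrane. They were the protein-coding mouse genes whose symbols begin with those of the families Nduf, Sdh, Uqcr, Cox and Atp5, or of the protein genes of the mitochondrial genome, and whose mean raw count over the 16 liver libraries was at least 10. Of 95 protein-coding symbols that matched, 4 fell under this limit (Cox6a2, Cox7b2, Cox8b and Cox8c), and the table held 46078 genes in all. 78 members are nuclear genes: 35 of complex I, 4 of complex II, 8 of complex III, 14 of complex IV, 16 of complex V and Atp5s, whose product is not itself a subunit of the synthase. The other 13 are the protein-coding genes of the mitochondrial genome. All 91 passed the filter on low counts of the tests. The member nearest to the limit was Cox6b2 with a mean of 28.2 counts, and the nearest genes outside it were Cox6a2 and Cox8b with 1.69 counts each. Family names left out Cox4i1, Cyc1 and a few other subunits, which are given with the pathway lists.

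Complexes I to IV pass electrons from NADH and succinate to oxygen and pump protons, except complex II, and complex V uses the resulting gradient to make ATP. Liver draws on this chain in fasting, when fatty acid oxidation feeds it and ATP is spent on glucose synthesis. Every complex except complex II is assembled from subunits of both genomes, so that the nuclear and the mitochondrial transcripts are read side by side below.

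Livers came from male C56B6/J mice (strain as labelled) that entered the diets at 8 weeks of age and were kept for 16 weeks on a control diet (CD) or on a high-fat diet (HFD) with 60% of calories from fat. The livers of ad libitum fed mice (CD fed, HFD fed) and of mice fasted for 16 h (CD fast, HFD fast) were each represented by 4 libraries. Polyadenylated RNA of whole liver was sequenced, so that fewer cells of a type and less RNA per cell cannot be told apart. The labels do not say whether each library came from its own mouse, and p-values measure the spread between these libraries.

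Library totals ranged from 41364448 to 57583153 counts. All 8 hepatocyte markers were present at 1 CPM (the count relative to a library total scaled by TMM, the trimmed mean of M-values) or more, and the striated muscle markers summed to at most 0.214 CPM in any library. Some libraries stood apart from their groups. CD fast replicate 2 had the lowest share of counts on mitochondrial-genome members (3.02%, against 4.72 to 5.03% in the other CD fast libraries) and the highest summed level of nuclear members in its group. HFD fast replicate 2 stood nearer to the CD libraries than its group mates in nuclear members. Its Cfd, an adipocyte marker, was at 70.1 CPM against 2.06 to 14.9 CPM in the other HFD fast libraries. The adipocyte markers Adipoq, Plin1, Lep and Retn had 3, 0, 1 and 4 raw counts in it. HFD fast replicate 1 was the highest library in Adipoq (45 counts) and Lep (36 counts), with 11 of Plin1. HFD fed replicate 2 had 24 counts of Adipoq and 18 of Plin1. Adipoq was under 1 CPM in every library. HFD fast replicate 4 had the highest TMM factor of all libraries (1.13). It and HFD fed replicate 4 were the highest of their groups in Col1a1, a fibroblast collagen (24.4 CPM against 1.63 to 8.43 CPM, and 21.1 CPM against 2.18 to 3.45 CPM). HFD fed replicate 4 was also highest in the cholangiocyte marker Krt19 (10.4 CPM, the others of its group 0.394 to 0.663 CPM) and in the acinar marker Ctrb1 (1.501 CPM, the others at most 0.0229 CPM), and its nuclear members lay lowest in its group. Results without 1 library are given below for each comparison.

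The upstream sequences of 5 nuclear members are shown because these genes carry the results below: Uqcr10, Uqcrh, Cox7a2 and Sdhd were lower in HFD fast than in CD fast livers in every fit tried, and Sdha is a complex II subunit for which no such difference was called. Each run is the 250 bases before the RefSeq start site (build GRCm38.p6), 5′ to 3′ on the strand of the gene. Capitals mark letters of 3 motifs searched on both strands: an ETS-type motif (CGGAAGT or CCGGAA, which can overlap each other), the nuclear respiratory factor 1 motif (GCGCA, then any base, then GCGC) and a YY1 motif (AAGATGGC).
Uqcr10, chr11:4704345-4704594, minus strand: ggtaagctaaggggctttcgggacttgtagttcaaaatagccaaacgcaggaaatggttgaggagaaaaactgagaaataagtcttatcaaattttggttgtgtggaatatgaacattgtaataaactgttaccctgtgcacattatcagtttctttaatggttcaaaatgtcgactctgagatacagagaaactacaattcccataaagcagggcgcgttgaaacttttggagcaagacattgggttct
Uqcrh, chr4:116075071-116075320, minus strand: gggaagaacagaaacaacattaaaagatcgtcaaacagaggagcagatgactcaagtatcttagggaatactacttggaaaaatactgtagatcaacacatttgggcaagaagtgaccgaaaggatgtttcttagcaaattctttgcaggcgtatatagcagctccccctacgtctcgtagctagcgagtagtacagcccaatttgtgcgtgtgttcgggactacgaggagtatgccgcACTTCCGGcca
Cox7a2, chr9:79759854-79760103, minus strand: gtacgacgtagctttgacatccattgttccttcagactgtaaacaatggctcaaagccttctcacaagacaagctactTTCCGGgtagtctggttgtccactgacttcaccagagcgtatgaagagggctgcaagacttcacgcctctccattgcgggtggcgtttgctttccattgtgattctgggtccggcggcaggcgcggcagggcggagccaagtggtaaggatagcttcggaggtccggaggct
Sdhd, chr9:50603850-50604099, minus strand: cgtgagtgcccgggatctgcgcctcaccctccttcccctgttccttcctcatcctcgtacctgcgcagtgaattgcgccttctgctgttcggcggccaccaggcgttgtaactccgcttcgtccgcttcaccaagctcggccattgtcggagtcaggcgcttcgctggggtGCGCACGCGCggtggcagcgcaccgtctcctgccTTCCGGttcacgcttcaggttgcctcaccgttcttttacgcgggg
Sdha, chr13:74350241-74350490, minus strand: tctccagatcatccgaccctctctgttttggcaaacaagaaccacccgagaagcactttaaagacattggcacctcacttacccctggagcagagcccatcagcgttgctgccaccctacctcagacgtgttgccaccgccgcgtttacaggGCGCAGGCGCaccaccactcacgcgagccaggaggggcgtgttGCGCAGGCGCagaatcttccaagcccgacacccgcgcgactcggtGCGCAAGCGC

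The upstream run of Sdha held 3 copies of the nuclear respiratory factor 1 letters, at 98, 55 and 10 bases before the start site. That of Sdhd held 1 copy, 79 bases before the start, and an ETS-type match 45 bases before it. Uqcrh had 2 overlapping ETS-type matches that began 11 and 9 bases before its start, and Cox7a2 had 1 that began 172 bases before. None of the letters occurred in the run of Uqcr10. RefSeq windows of 300 bases (250 before and 50 after the start) matched 66 of the 78 nuclear members. Ndufa2, Ndufb9, Ndufs1, Sdhc, Uqcrb, Uqcrc2, Uqcrq, Cox6c, Ndufa4l2, Atp5a1 and Atp5mpl were among those not matched. ETS-type letters were in a window of 27 members (40.9%) and of 18.6% of all 27025 genes with a window. Nuclear respiratory factor 1 letters were in 17 members (25.8%) and in 5.19% of all genes, and YY1 letters in 10 members (15.2%) and in 3.19% of all genes. Some motif was found in 29 of the 44 members that were lower with HFD in fasted mice (65.9%) and in 15 of the 22 that were not (68.2%), beside 23.8% of all genes. Such letters are a description of the windows and not evidence of binding.

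The levels of the subunits spanned a wide range. Per kilobase of exon, the nuclear members ranged from 0.561 CPM for Cox6b2 to 336 CPM for Atp5a1, with a median of 59.3 CPM per kilobase. Atp5a1 and Atp5b, the alpha and beta chains that form the catalytic head of the ATP synthase, were at 336 and 296 CPM per kilobase. Among the complex IV genes with tissue-specific partners, the liver forms were high: Cox6a1 was at 273, Cox8a at 297, Cox6b1 at 231 and Cox7a2 at 117 CPM per kilobase. Their partners known from heart, muscle or testis were low, with Cox7a1 at 1.90, Cox6b2 at 0.561, Cox8b at 0.0990 and Cox6a2 at 0.0522 CPM per kilobase. Nuclear members lay on 19 chromosomes and summed to 0.948 to 1.19% of a library's counts, and the mitochondrial-genome members summed to 3.02 to 5.13%. The mitochondrial sum includes 5 genes with low counts whose levels are uncertain, as described below.

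The diet comparison in fasted mice asked whether HFD changed the state of the chain that fasting livers reach. Here many single subunits were lower in HFD livers, and 40 of 91 did not pass. Of 91 members, 51 were lower and 0 were higher in HFD fast than in CD fast livers (edgeR quasi-likelihood test, Benjamini-Hochberg adjusted p under 0.05), where 7.70% of all 15075 tested genes were called in either direction, 4.65% lower and 3.05% higher. The log2 change was negative in 89 of 91 members, and the unadjusted p was under 0.05 in 65 (25.9% of all genes). The nuclear members had a median log2 change of -0.34 and the mitochondrial-genome members one of -0.29, beside a median of 0.01 over all tested genes. In 46 members every HFD fast library was below every CD fast library, which occurred in 7.45% of all tested genes. The reverse was seen in 1 member, Ndufa4l2 (6.55% of all genes).

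By complex, lower calls were made for 20 of 35 nuclear members of complex I, 1 of 4 of complex II, 5 of 8 of complex III, 10 of 14 of complex IV and 13 of 16 of complex V. Median log2 changes of these groups were -0.29, -0.16, -0.39, -0.39 and -0.35. Summed over its nuclear members, complex IV was at 1799 ± 108 CPM in CD fast (SD, n = 4) and at 1357 ± 125 CPM in HFD fast, a difference of -24.6%. Complex V was at 4765 ± 309 CPM and 3848 ± 274 CPM, complex I at 2826 ± 170 and 2339 ± 221 CPM, and complex III at 1439 ± 80 and 1145 ± 107 CPM (SD, n = 4 in each group). The differences were -19.3%, -17.2% and -20.4%. Complex II differed least, with 1014 ± 53 CPM in CD fast and 925 ± 114 CPM in HFD fast (-8.8%). HFD fast replicate 2 was at 1095 CPM in complex II, above every CD fast library (949 to 1073 CPM). The other HFD fast libraries were at 862 to 879 CPM, so that the difference was larger without replicate 2. These sums are TMM-scaled, and the unscaled share of the nuclear members in each group is given below. Complexes share libraries and scaling, and differences between complexes were not tested.

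**Figure D1:**
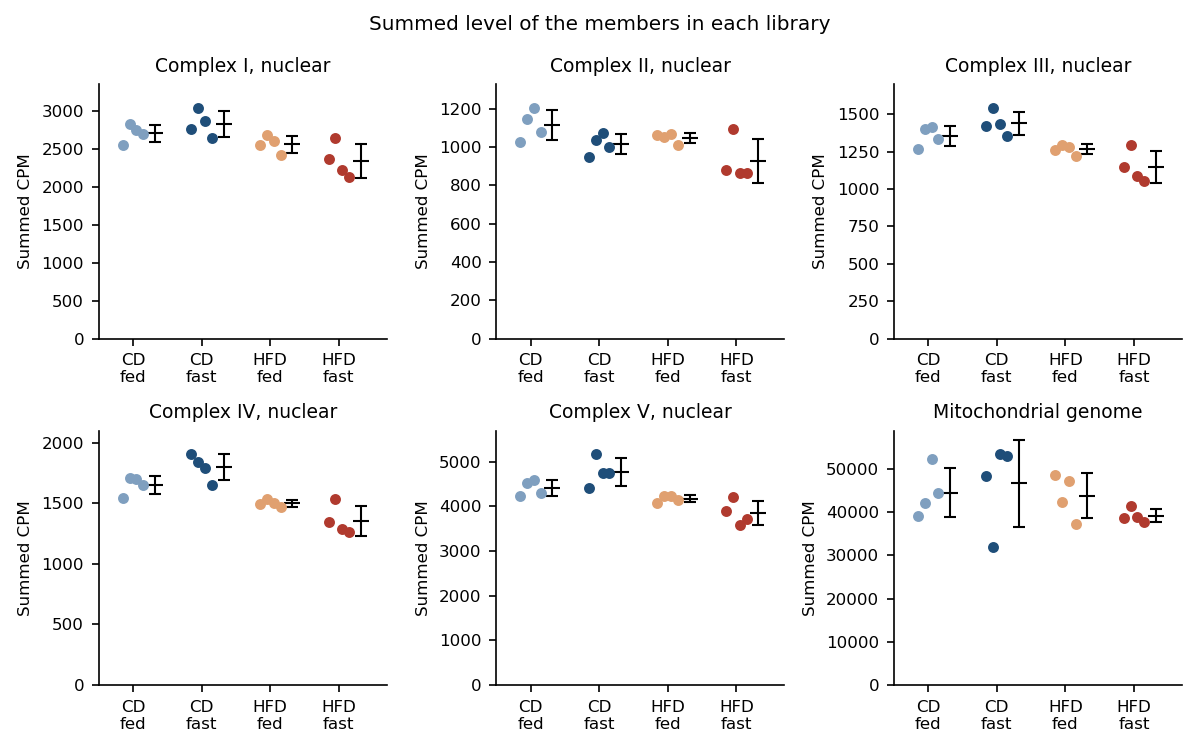
Summed TMM-scaled CPM (y axis from 0) of the nuclear members of each complex and of the mitochondrial-genome members in each of the 16 libraries, by group (x axis). Points are libraries and the bar beside them is the mean ± SD (n = 4). In complex IV the 4 HFD fast libraries, at 1260 to 1536 CPM, lie below the 4 CD fast libraries at 1654 to 1907 CPM, while the mitochondrial panel has 1 CD fast library far below the rest of its group.

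Uqcr10, a small accessory subunit of complex III, had the lowest p of the members in this comparison. It was at 115, 115, 100 and 101 CPM in CD fast and at 67.9, 79.1, 64.9 and 65.0 CPM in HFD fast. The groups were well apart, and HFD fast replicate 2 was the highest of its group. The log2 change was -0.63 (SE 0.08, adjusted p = 0.00132), or 0.644 times the CD fast level. Uqcrh, the hinge protein of complex III that contacts cytochrome c1, was at 207, 182, 184 and 172 CPM in CD fast and at 131, 141, 118 and 119 CPM in HFD fast (log2 change -0.55, SE 0.07, adjusted p = 0.00181). The Rieske iron-sulphur protein gene Uqcrfs1 was lower by a smaller amount (-0.35, adjusted p = 0.0156). Uqcrc1 and Uqcrc2, the large core proteins of the same complex, did not pass (log2 changes -0.21 and -0.09, adjusted p = 0.203 and 0.485).

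Among complex IV genes, Cox7a2 was at 153, 123, 119 and 127 CPM in CD fast and at 87.8, 93.0, 86.2 and 89.9 CPM in HFD fast. Its HFD fast values were tightly grouped and all below the CD fast values (log2 change -0.55, SE 0.08, adjusted p = 0.00219). Ndufa4, once assigned to complex I and now placed in complex IV, was at 253, 218, 227 and 208 CPM and at 163, 176, 147 and 156 CPM (log2 change -0.50, adjusted p = 0.00464). Cox7b, Cox6b1, Cox7c, Cox5b, Cox6a1, Cox5a, Cox8a and Cox7a2l were also lower, with log2 changes between -0.53 and -0.27. Cox7a2l had the smallest of these.

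In complex V, Atp5mpl, a small membrane protein of the synthase, was at 67.4, 60.1, 57.2 and 57.0 CPM in CD fast and at 42.9, 46.7, 39.5 and 41.7 CPM in HFD fast (log2 change -0.50, adjusted p = 0.00219). The catalytic beta chain gene Atp5b was at 1223, 1487, 1380 and 1400 CPM and at 1144, 1156, 1011 and 1095 CPM, a log2 change of -0.32 (SE 0.08, adjusted p = 0.0293). Its partner Atp5a1 was at 981, 1243, 1137 and 1178 CPM and at 1004, 1122, 940 and 963 CPM, where the groups overlapped (log2 change -0.17, adjusted p = 0.239). The peripheral stalk gene Atp5o (-0.47, adjusted p = 0.00411) and 2 of the 3 genes of the membrane c-ring, Atp5g1 (-0.49, adjusted p = 0.0338) and Atp5g3 (-0.44, adjusted p = 0.00916), were lower. CD fast replicate 2 was high in Atp5g1 (176 CPM, the others of its group 103 to 116 CPM), and without it the log2 change was -0.298 (adjusted p = 0.0604). That call was also lost without HFD fast replicate 3 or 4. The remaining c-ring gene Atp5g2 did not pass (-0.25, adjusted p = 0.0795).

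Complex I gave the longest list. Among its nuclear members Ndufa12 (-0.59, adjusted p = 0.0128), Ndufa5 (-0.55, adjusted p = 0.00502) and Ndufs7 (-0.54, adjusted p = 0.00862) had the lowest log2 changes. Ndufs7, which carries the last iron-sulphur cluster before ubiquinone, was at 72.4, 94.9, 69.8 and 72.3 CPM in CD fast and at 57.6, 58.5, 50.3 and 46.5 CPM in HFD fast. CD fast replicate 2 was high in this gene, and the other CD fast libraries also lay above every HFD fast library. The core subunit Ndufv2 was called (-0.36, adjusted p = 0.0271), and Ndufv1, Ndufs1, Ndufs3 and Ndufs8, also core subunits of the hydrophilic arm, were not (log2 changes -0.18, -0.08, -0.21 and -0.07).

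Complex II, the succinate dehydrogenase, divided. Its membrane anchor Sdhd was at 230, 255, 238 and 244 CPM in CD fast and at 170, 192, 163 and 163 CPM in HFD fast, without overlap (log2 change -0.49, SE 0.07, adjusted p = 0.00342). Sdha, the flavoprotein that oxidises succinate, was at 437, 454, 515 and 451 CPM and at 444, 573, 458 and 431 CPM, and the groups overlapped (0.04, SE 0.10, adjusted p = 0.847). Sdhb and Sdhc had log2 changes of -0.20 and -0.11 and did not pass (adjusted p = 0.234 and 0.383).

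**Figure D2:**
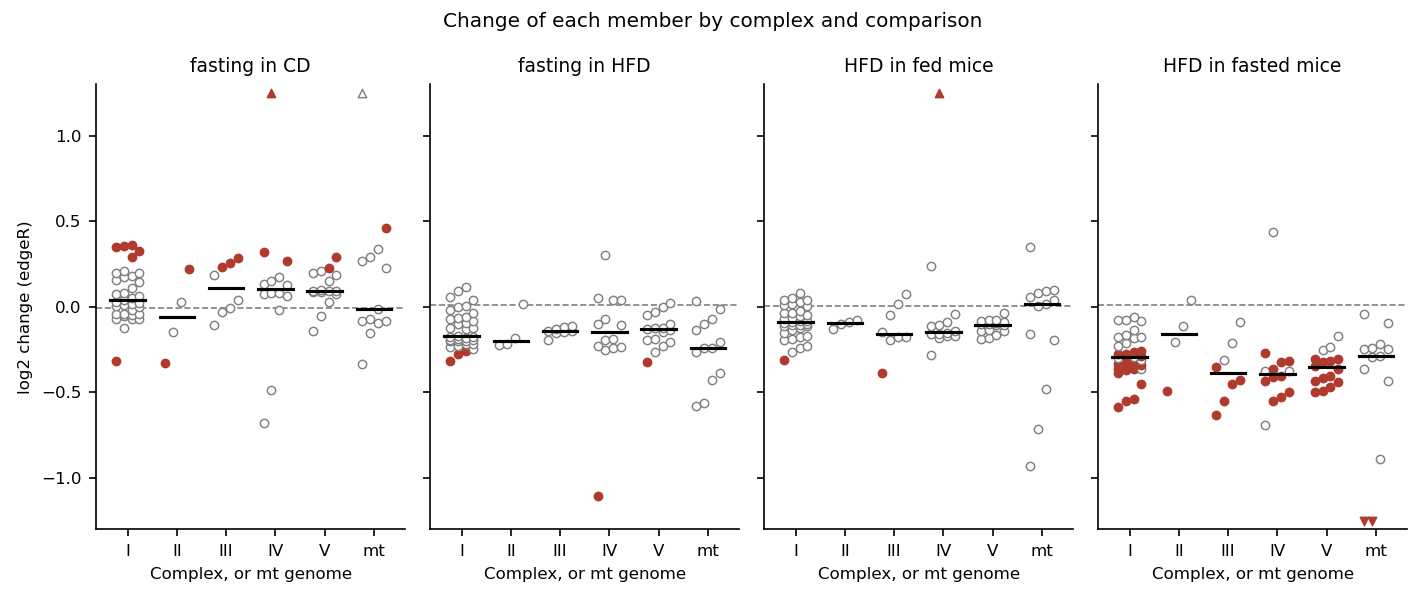
log2 change (edgeR, y axis) of each member in the 4 pairwise comparisons, by complex for nuclear members and together for the mitochondrial genome (mt). Filled points passed an adjusted p of 0.05, black bars are medians, the dashed line is the median of all 15075 tested genes, triangles are values beyond the axis, and Atp5s is not drawn. With HFD in fasted mice nearly the whole of complexes I, III, IV and V lies below the dashed line, while Sdha in complex II lies at 0.04.

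The size of this result depended on the spread used and on single libraries. Fitted on the CD fast and HFD fast libraries alone, 5 members were called lower (Benjamini-Hochberg adjusted edgeR test), where 0.623% of all genes were called in either direction. Without HFD fast replicate 3 or without HFD fast replicate 4, 21 members were called, where 3.61% and 3.51% of all genes were called in place of 7.70%. Without CD fast replicate 1 the number was 33 (4.71% of all genes), without CD fast replicate 2 it was 35 (4.61%), and without HFD fast replicate 2 it was 57 (7.46%). Of the 51 calls, 21 were kept in every fit that left out 1 library, and the other 30 were lost without HFD fast replicate 3 and again without HFD fast replicate 4, 19 of them also without CD fast replicate 2. Among the members named above, Ndufv2, Atp5b, Atp5g1, Cox5b, Cox6a1, Cox5a, Cox8a and Cox7a2l were lost in all 3 of these fits, and Uqcrfs1 in the first and second. With both CD fast replicate 2 and HFD fast replicate 4 left out, 16 members were called beside 2.08% of all genes (1.36% lower), and the nuclear median was -0.26. Scaling by total counts in place of TMM moved the median of all genes to 0.17 and that of the nuclear members to -0.18, so that their distance to all genes stayed at -0.35, and 21 members were called lower, where 1.66% of all genes were called lower and 12.3% higher. Under it 80 of 91 members had a negative change. Uqcr10, Uqcrh, Cox7a2, Sdhd and Atp5mpl were lower at an adjusted p under 0.05 in each fit that left out 1 library and also under every other scaling, filter and model tried.

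The deviation from the mean of all libraries, as the median over nuclear members on the log2 scale, was -0.17, -0.25 and -0.29 in HFD fast replicates 1, 3 and 4, and 0.00040 in replicate 2. In the CD fast libraries it was 0.13, 0.22, 0.16 and 0.062. The summed hepatocyte markers were at 96347 to 117790 CPM in CD fast and at 79940 to 110460 CPM in HFD fast, and 2 of 5 endothelial, 1 of 6 stellate and 1 of 5 erythroid markers were higher in HFD fast, and 1 of 8 hepatocyte markers was lower. The part of such markers in the result was not tested. The lower-called nuclear members had a median exon length of 1465 bases and a median GC content of 49.7%, beside 2039 bases and 52.2% in the nuclear members not called. With offsets for GC and length in the fit, 48 members were lower, beside 8.14% of all genes, and the distance of the nuclear median to all genes was -0.26 in place of -0.35. Some members overlap another abundant gene, such as Ndufs1 with Eef1b2, Atp5j with Gabpa and Ndufa4l2 with Shmt2, and their counts are less certain because the strand setting is not stated.

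Fasting in CD mice gave a smaller and mixed picture. Here 16 members rose and 2 fell, where 25.2% of all tested genes were called, 13.7% higher and 11.5% lower. The share of members called, 19.8%, was below that of all genes, and the unadjusted p was under 0.05 in 28 (37.6% of all genes). The median log2 change was 0.08 for the nuclear members and -0.02 for the mitochondrial-genome members, beside -0.01 for all genes. The mitochondrial-genome median was 0.25 over the 8 genes with under 97% of windows shared with nuclear copies. It was -0.08 over the 5 genes above 97%, whose levels are uncertain. Summed levels of complexes I, III, IV and V were 4.6%, 6.3%, 9.0% and 8.0% higher in CD fast than in CD fed, and that of complex II differed by -8.9%. CD fast replicate 2 was the highest of its group in complexes I, III and V, at 3040.5, 1545 and 5166 CPM. The other CD fast libraries were at 2639 to 2863, 1352 to 1438 and 4412.5 to 4747 CPM. CD fed means were 2702, 1353 and 4411 CPM. Without that library the differences in these complexes were smaller. The sum over all nuclear members was then 11587 in place of 11850 CPM, beside 11234 CPM in CD fed. In the same comparison 3 of 6 Kupffer, 2 of 5 endothelial, 1 of 6 stellate, 1 of 5 erythroid and 1 of 8 hepatocyte markers were lower in CD fast, and 0 were higher. Of the tested pancreatic acinar and brown adipocyte markers, 2 of 2 and 1 of 2 were also lower. Their part in the result was not tested.

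Most of the members that rose with fasting in CD did so by a modest amount. Ndufv2, Ndufa5, Ndufs7, Ndufb7 and Ndufb10 of complex I rose with log2 changes of 0.36, 0.36, 0.35, 0.33 and 0.29. Uqcr10, Uqcrh and Uqcrfs1 of complex III rose by 0.29, 0.26 and 0.23, Cox5b and Cox7b of complex IV by 0.32 and 0.27, Atp5g3 and Atp5o of complex V by 0.29 and 0.22, and Sdhd by 0.22. In Uqcr10 the CD fed values were 80.5, 94.0, 91.9 and 85.8 CPM, all under the lowest CD fast value of 100 CPM. Without CD fed replicate 1, without CD fed replicate 4 or without CD fast replicate 2 the number of members called was 8, 9 and 11, where 19.4, 20.8 and 18.7% of all genes were called in place of 25.2%. The calls lost without CD fast replicate 2 were 10, among them those of Ndufs7 (0.24, adjusted p = 0.0788), Ndufb7, Ndufb10, Uqcrfs1, Atp5g3, Atp5o and Sdhd. Cox5b, in which that library was at 191 CPM and the others of its group at 129 to 140 CPM, fell to 0.18 without it (adjusted p = 0.161) and lost its call in 11 of 16 such fits. Cox7b was at 0.18 (adjusted p = 0.121) without CD fast replicate 1. The calls of Ndufa5, Ndufv2, Uqcr10, Cox6b2 and Atp5s were kept in every fit that left out 1 library.

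Atp5s moved most clearly. It encodes coupling factor B, a small protein related to factors that help assemble the respiratory membrane arms, and was at 2.90, 2.95, 3.02 and 3.05 CPM in CD fed and at 7.03, 7.39, 5.55 and 6.64 CPM in CD fast. All fasted values were well above the fed ones (log2 change 1.16, SE 0.11, adjusted p = 1.23e-05). In HFD mice it was at 3.26, 3.79, 3.73 and 3.67 CPM fed and at 5.81, 4.30, 5.34 and 5.53 CPM fasted (0.54, SE 0.11, adjusted p = 0.0105). The difference between these responses, -0.62, did not pass (adjusted p = 0.0542). Cox6b2, the testis form of subunit 6B, also rose in CD mice, from 0.164, 0.222, 0.0737 and 0.0893 CPM to 0.896, 2.10, 0.571 and 0.892 CPM (log2 change 2.99, SE 0.54, adjusted p = 0.00113). Its mean count was 28.2, so that the fold rests on few reads.

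The 2 genes that fell with fasting in CD were Ndufs8 and Sdha. Ndufs8, an iron-sulphur subunit of complex I, was at 58.3, 62.9, 59.4 and 60.3 CPM in CD fed and at 44.2, 53.9, 50.1 and 45.5 CPM in CD fast (log2 change -0.31, SE 0.09, adjusted p = 0.017). It fell in HFD mice as well, from 58.03, 59.6, 59.2 and 52.6 CPM to 49.3, 51.8, 44.4 and 38.4 CPM (-0.32, SE 0.09, adjusted p = 0.0358). Sdha was at 521, 592, 642 and 579 CPM in CD fed, above all 4 CD fast values (-0.33, SE 0.10, adjusted p = 0.026), and its change in HFD mice of -0.22 did not pass (adjusted p = 0.189). With 1 library left out, Sdha lost its call in 5 of 16 fits, CD fast replicate 2 among those left out, and it was also lost with offsets for GC and length, with and without a replicate block. In the same left-out fits Ndufs8 lost its calls in 1 (CD) and 6 (HFD) of 16.

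**Figure D3:**
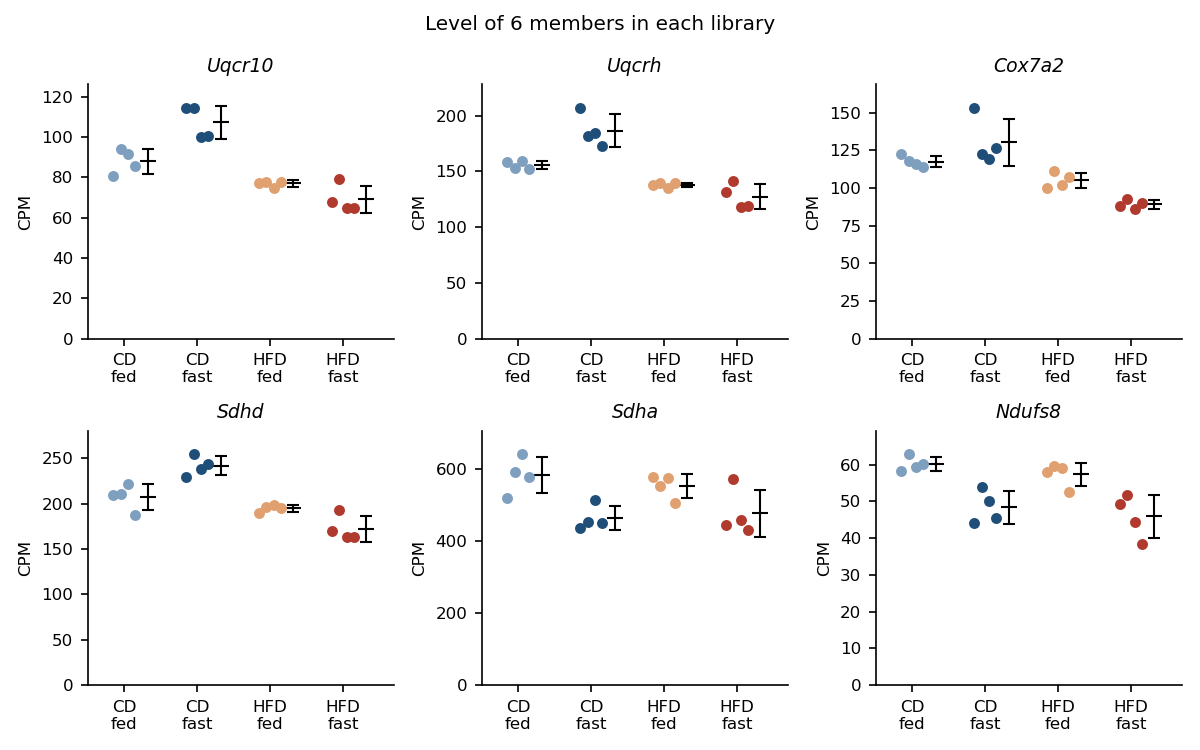
Level of Uqcr10, Uqcrh, Cox7a2, Sdhd, Sdha and Ndufs8 in each library (CPM, TMM-scaled, y axis from 0) by group; points are libraries and the bar beside them is the mean ± SD (n = 4). In Uqcr10 the CD fast libraries lie at 100 to 115 CPM and the HFD fast libraries at 64.9 to 79.1 CPM, while in Sdha the CD fast and HFD fast libraries overlap.

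Fasting in HFD mice moved few members past the threshold. Only Atp5s rose, and 5 members fell: Cox7a1, Atp5e, Ndufs8, Ndufb6 and Ndufb2. Across all tested genes 8.86% were called, 4.78% higher and 4.07% lower. In 11 members every fasted library was below every fed library (8.65% of all genes), and the unadjusted p was under 0.05 in 28 (25.6% of all genes). The median log2 change was -0.14 for nuclear and -0.24 for mitochondrial-genome members beside 0.01 for all genes, and 77 of 91 changes were negative. Of the mitochondrial-genome members, the 8 with under 97% of windows shared had a median of -0.12 and the other 5 one of -0.39. The mitochondrial-genome median was -0.16 without HFD fed replicate 1 and -0.34 without HFD fed replicate 4. Cox7a1, the heart and muscle form of subunit 7A, was at 1.12, 1.4004, 1.51 and 1.54 CPM in HFD fed and at 0.542, 0.680, 0.754 and 0.606 CPM in HFD fast (log2 change -1.11, SE 0.21, adjusted p = 0.00583). Atp5e, the epsilon subunit of the synthase's central stalk, was at 87.0, 91.3, 89.1 and 83.8 CPM fed and at 66.6, 82.9, 66.0 and 65.7 CPM fasted (-0.32, SE 0.08, adjusted p = 0.0208). HFD fast replicate 2 was again the high library of its group. Without it the nuclear median was -0.23 and 25 members were called, 24 of them lower, beside 8.26% of all genes (4.42% lower). Without any one of 6 other HFD libraries 2 were called, beside 3.31 to 6.93% of all genes. The number also depended on the model: it was 13 with offsets for GC and length (9.82% of all genes), 24 with these and a replicate block (11.1%) and 17 with DESeq2 (13.3%).

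The diet comparison in fed mice showed few calls. Uqcr11 and Ndufa13 were lower in HFD and Cox6b2 was higher, beside 7.50% of all tested genes called and 4.22% called lower. In 19 members every HFD fed library was below every CD fed library (8.51% of all genes), and in 2 it was above (7.21%). Uqcr11, a small complex III subunit, was at 118, 144, 134 and 143 CPM in CD fed and at 107, 107, 98.1 and 98.3 CPM in HFD fed (log2 change -0.39, SE 0.10, adjusted p = 0.0226). Ndufa13, a complex I subunit also known as GRIM-19, was at 109, 134, 119 and 131 CPM and at 96.5, 98.6, 94.7 and 107 CPM (-0.31, SE 0.08, adjusted p = 0.0335). Both genes were also lower with HFD in fasted mice (-0.43 and -0.34), and their diet by fasting terms were -0.04 and -0.03. Cox6b2 was at 0.423, 0.635, 0.457 and 0.691 CPM in HFD fed (1.99, SE 0.55, adjusted p = 0.0395). The nuclear median was -0.10 beside 0.01 for all genes, and -0.06 beside 0.00 with offsets for GC and length. Under those offsets, with and without a replicate block, the calls of Uqcr11 and Ndufa13 were lost, and that of Ndufa13 was also lost under total count scaling. Leaving out replicate 2 or 4 of CD fed, or replicate 3 of HFD fed, left 0 calls by the edgeR test, beside 3.37 to 5.88% of all genes, and leaving out replicate 3 of CD fed or any other HFD fed library left 1, beside 4.84 to 5.74%. With all libraries 14 members had an unadjusted p under 0.05 (22.9% of all genes), and DESeq2 called 4, beside 11.7% of all genes.

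Whether fasting acted differently in the 2 diets was tested by the interaction term. It passed for 2 members, Uqcr10 (-0.44, SE 0.11, adjusted p = 0.0437) and Sdhd (-0.40, SE 0.10, adjusted p = 0.0492), where 2.59% of all tested genes were called, 1.36% with a negative term. Uqcr10 rose with fasting in CD (0.29) and had a change of -0.15 in HFD (adjusted p = 0.227). Sdhd rose in CD (0.22) and had a change of -0.18 in HFD (adjusted p = 0.127). The term was negative in 88 of 91 members, with a median of -0.23 for nuclear and -0.34 for mitochondrial-genome members beside 0.00 for all genes, and its unadjusted p was under 0.05 in 28 members (20.2% of all genes). The mitochondrial-genome median was -0.53 without CD fast replicate 2 and -0.24 without CD fast replicate 3. The 2 calls were near the threshold, and leaving out 1 library at a time gave between 0 and 6 calls, the most without HFD fast replicate 2, where 2.30% of all genes were called. Sdhd lost its call in 14 of 16 such fits and Uqcr10 in 13 of 16. DESeq2 called 16 members, all negative, where it called 7.07% of all genes (3.81% negative). Under a replicate block the call of Sdhd was also lost.

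**Figure D4:**
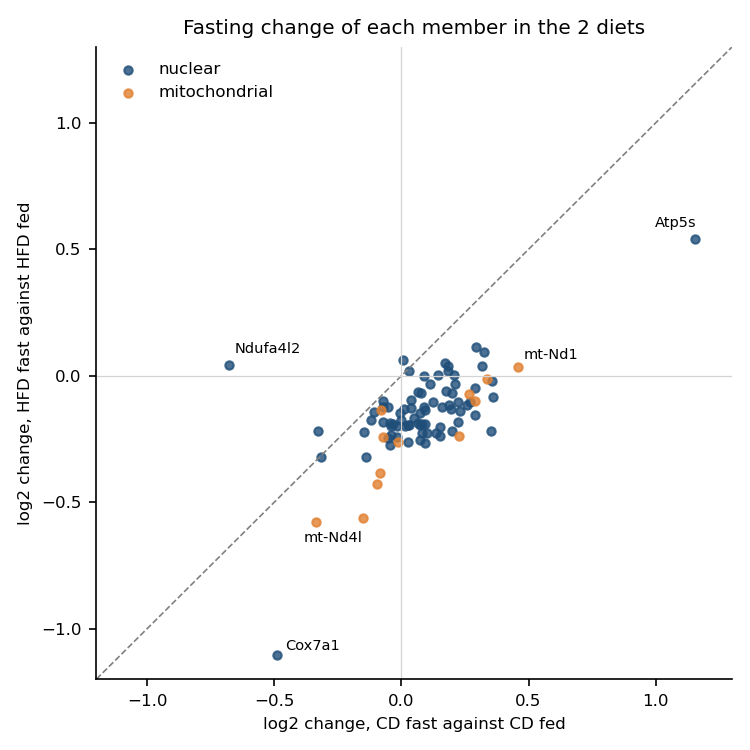
log2 change with fasting in CD mice (x axis) and in HFD mice (y axis) for each member, from 1 edgeR fit over all 16 libraries, in which each axis contrasts other libraries; blue points are nuclear and orange points mitochondrial-genome members, and the dashed line marks equal change. Cox6b2 and mt-Co2, at 2.99 and 1.65 on the x axis, lie beyond the frame. In all, 88 of 91 members have a lower value in HFD than in CD.

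The mitochondrial-genome members differed from the nuclear ones in how well they could be measured. mt-Co1, the catalytic subunit 1 of complex IV, had the highest mean count of the 13, 811100, and mt-Co3, a structural subunit of the same complex, the lowest, 57.9. For mt-Nd3, mt-Nd4l, mt-Co2, mt-Co3 and mt-Atp6, between 97.6 and 99.9% of all 100-base windows also occur in a nuclear pseudogene copy annotated on chromosome 1 (and, for mt-Co2, also on chromosome 2). Their mean counts were 69.1, 610, 140, 57.9 and 6813. mt-Nd4 shared 60.8% and mt-Co1 30.8% of windows. For mt-Nd1, mt-Nd2, mt-Nd5 and mt-Cytb, at most 3.20% of windows were shared, and their mean counts were at least 202800. mt-Atp8 and mt-Nd6 shared 0% of windows and had mean counts of 37650 and 1176. Per kilobase of exon mt-Atp8, a very short gene, was at 3829 CPM, within the range of 2303 to 10811 CPM of the 6 genes with at most 60.8% shared and high counts, mt-Nd6 was at 46.2 CPM, and the 5 genes with nearly all windows shared were at 1.51 to 206 CPM. How the counting treated reads that fit in more than 1 place is not stated in the sources used here, so levels of the 5 genes are uncertain. The part of this sharing in the low counts was not tested.

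**Figure D5:**
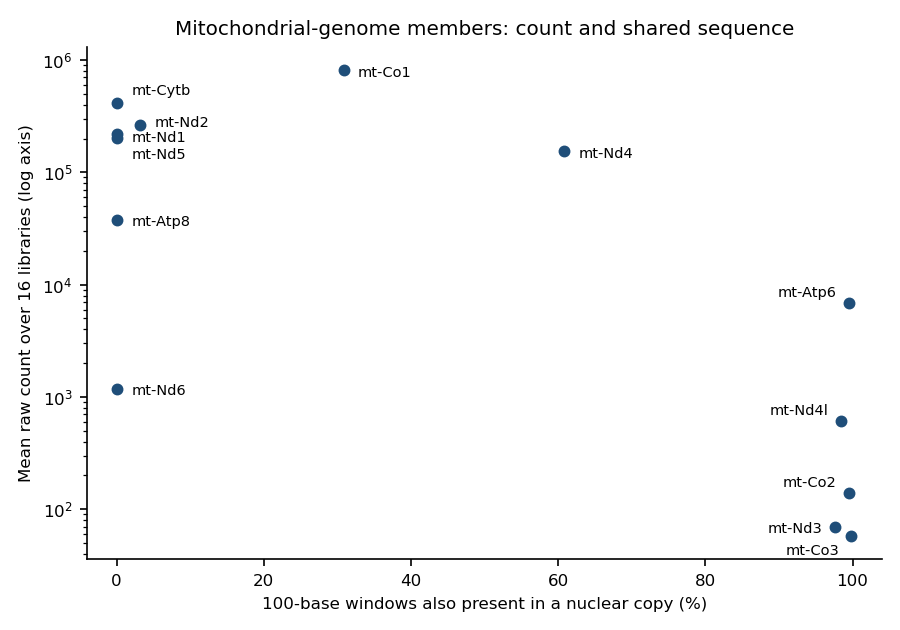
Mean raw count over the 16 libraries (log axis) of each of the 13 mitochondrial-genome members against the percentage of its 100-base windows that also occur in an annotated nuclear copy. The 5 genes beyond 97% of shared windows lie between 57.9 and 6813 counts, while mt-Cytb, mt-Nd1, mt-Nd2 and mt-Nd5 lie at 202800 or more. mt-Atp8 and mt-Nd6, with 0% shared, lie at 37650 and 1176.

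Summed, the mitochondrial-genome members of CD livers were at 44528 ± 5672 CPM fed and 46702 ± 10082 CPM fasted, and those of HFD livers at 43816 ± 5227 CPM fed and 39156 ± 1547 CPM fasted (SD, n = 4 each). The CD fast spread came mostly from replicate 2 at 31978 CPM, as the other libraries of that group were at 48366, 53427 and 53036 CPM. The 4 HFD fast libraries were at 37719 to 41347 CPM. With HFD in fasted mice the sum differed by -16.2% and the nuclear sum by -18.8%, from 11850 ± 574 CPM to 9619 ± 822 CPM. Without CD fast replicate 2 the order turned, with -24.1% for the mitochondrial and -17.0% for the nuclear sum. In the fit without it the mitochondrial-genome median for HFD in fasted mice went from -0.29 to -0.46, and that for fasting in CD from -0.02 to 0.21. The ratio of the mitochondrial to the nuclear sum in CD livers was 3.96 ± 0.40 fed and 3.97 ± 0.98 fasted, and in HFD livers 4.15 ± 0.47 fed and 4.08 ± 0.20 fasted (SD, n = 4). Without CD fast replicate 2, whose ratio was 2.53, that of CD fast was 4.45 ± 0.22 (SD, n = 3), with libraries at 4.22 to 4.65. The ratio was not tested between groups, and its mitochondrial sum includes the 5 genes of uncertain level. The mitochondrial share of counts in the same order was 4.34 ± 0.56%, 4.42 ± 0.94%, 4.48 ± 0.44% and 4.14 ± 0.10%.

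Single mitochondrial-genome members rarely passed the test. With HFD in fasted mice all 13 had negative changes, and 2 were called. mt-Nd6, a complex I subunit and the only one of these genes annotated on the minus strand, was at 33.1, 20.4, 60.9 and 28.3 CPM in CD fast and at 11.9, 15.9, 13.7 and 12.8 CPM in HFD fast (log2 change -1.399, SE 0.31, adjusted p = 0.0154). It overlaps the far more abundant mt-Nd5 on the other strand, and although the alignment used a stranded (first-strand) setting, that of the counting is not stated, so its counts are uncertain. mt-Co2 was at 2.62, 1.23, 2.01 and 22.1 CPM in CD fast and at 1.37, 1.47, 1.13 and 0.767 CPM in HFD fast, where 3 CD fast libraries, 1 of them very high, lay above every HFD fast library and replicate 2 overlapped (-2.56, SE 0.70, adjusted p = 0.0359). Without CD fast replicate 4 its log2 change was -0.72 (adjusted p = 0.134), and the call was also lost without any 1 of the HFD fast libraries. A replicate block, with or without offsets for GC and length, limma-voom and the fit on the compared groups alone each lost this call too.

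The abundant members had wide spreads. mt-Co1 was at 15933, 12880, 20659 and 19688 CPM in CD fast and at 14241, 16260, 14761 and 14310 CPM in HFD fast (log2 change -0.22, SE 0.16, adjusted p = 0.433). mt-Cytb, the only mitochondrial-genome subunit of complex III, was at 9662, 5440, 9313 and 9678 CPM and at 6539, 7323, 6230 and 7667 CPM (-0.30, SE 0.17, adjusted p = 0.292). In mt-Cytb the groups overlapped only through CD fast replicate 2. mt-Nd1, a membrane subunit of complex I, was called with fasting in CD: it was at 3744, 3660, 4845 and 4003 CPM in CD fed and at 5801, 3861, 6587 and 6101 CPM in CD fast (0.46, SE 0.16, adjusted p = 0.0423), and this call was lost in 10 of the 16 fits without 1 library. Standard errors of the abundant mitochondrial-genome members were 0.16 to 0.24, beside 0.07 to 0.08 for Uqcr10, Uqcrh, Cox7a2 and Sdhd, so that a change of the nuclear size was less detectable in them.

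Other genes of the pathway were read from lists of assembly factors, regulators and carriers. With HFD in fasted mice, 4 of 6 tested subunits outside the family names were lower: Cox4i1 (-0.37, adjusted p = 0.0144), Usmg5 (-0.39, adjusted p = 0.00820), Cyc1 (-0.35, adjusted p = 0.0388) and Cycs (-0.40, adjusted p = 0.0397). Cox4i1 is the regulatory subunit 4 of complex IV, Usmg5 a small subunit of the synthase, Cyc1 the cytochrome c1 of complex III and Cycs the soluble cytochrome c. Of assembly factors, 1 of 15 for complex I (Ndufaf8, -0.43) and 3 of 32 for complexes II to V (Sdhaf4, Sco2 and Uqcc3, with -0.39, -0.63 and -0.40) were lower, where 4.65% of all tested genes were; the difference from the subunits was not tested. Their median log2 changes were -0.02 and -0.12. Of genes for mitochondrial DNA maintenance, transcription and RNA handling 1 of 29 was lower (Mterf4, -0.36), a share below that of all genes, and of the ADP/ATP exchange and channel genes 2 of 8 were lower, the phosphate carrier Slc25a3 (-0.39) and the outer membrane channel Vdac2 (-0.23). With 1 library left out, the calls of Cox4i1, Usmg5 and Uqcc3 were kept in every fit, and those of Cyc1, Cycs and Vdac2 were lost in 7, 9 and 13 of 16. Those of Ndufaf8, Sco2, Mterf4 and Sdhaf4 were lost without HFD fast replicate 4, and that of Slc25a3 without HFD fast replicate 3.

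With fasting in CD, 8 of 29 genes for mitochondrial DNA maintenance, transcription and RNA handling rose and 0 fell, where 13.7% of all tested genes rose and 11.5% fell. Tfam, which packages mitochondrial DNA and starts its transcription, went from 38.9 ± 2.93 CPM in CD fed to 49.7 ± 0.617 CPM in CD fast (SD, n = 4; log2 change 0.35, adjusted p = 0.00143), and Hsd17b10, a subunit of mitochondrial ribonuclease P, from 121 ± 21.4 to 331 ± 105 CPM (1.45). Among 12 nuclear regulators of respiratory genes, 2 rose: Ppargc1a, the fasting-induced coactivator of mitochondrial genes (10.6 ± 4.09 to 25.2 ± 17.3 CPM, SD, n = 4; log2 change 1.24, adjusted p = 0.0287), and its partner receptor Esrra (20.4 ± 2.62 to 37.2 ± 10.2 CPM, 0.87, adjusted p = 0.00117). In CD fast livers Ppargc1a was at 10.2, 48.5, 14.2 and 27.8 CPM, and replicates 1 and 3 lay within the CD fed range of 6.30 to 15.7 CPM. Without CD fast replicate 2 its change with fasting was 0.71 (adjusted p = 0.141), and that of Esrra was 0.68 (adjusted p = 0.00282). In HFD mice Ppargc1a was at 13.3 ± 2.16 CPM fed and 10.4 ± 2.40 CPM fasted, and Esrra at 28.9 ± 2.57 and 27.9 ± 3.28 CPM. The diet by fasting term passed for Esrra (-0.92, SE 0.22, adjusted p = 0.0401) and not for Ppargc1a (-1.59, SE 0.55, adjusted p = 0.124); without CD fast replicate 2 that of Esrra was -0.73 (adjusted p = 0.054). With HFD in fasted mice 0 of 12 regulators passed the edgeR test at an adjusted p of 0.05, with 2 at an unadjusted p under 0.05 (Ppargc1a -1.27, adjusted p = 0.0575, and Esrra -0.42, adjusted p = 0.107). Without CD fast replicate 2 these were -0.74 (adjusted p = 0.187) and -0.23 (adjusted p = 0.299, unadjusted p = 0.0965). Of complex II to V assembly factors, 6 of 32 rose with fasting in CD, among them Coa4 (0.66), Uqcc3 (0.56) and Cox17 (0.43), and 2 fell (Uqcc2 -0.41 and Cox18 -0.49). The calls of Cox17 and Uqcc2 were lost in 3 and 2 of 16 fits with 1 library left out.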

How the data were processed

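The authors deposited 1 table of raw whole counts per Ensembl gene, with no normalization. Poly(A)-selected RNA was sequenced as paired ends, aligned to GRCm38 with TopHat2 2.0.11 in a first-strand mode and counted with featureCounts (tool names from the submitters' processing notes). The annotation came from Illumina iGenomes per the study's methods. Its release, whether featureCounts used strand, and how reads with several positions were treated are not given in the sources used here. Of 46078 genes, 45143 were matched to a GENCODE vM21 symbol. All columns were mapped to samples by their labels.

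The analysis used edgeR 4.0.16 (R 4.3.3) with filterByExpr (15075 genes), TMM scaling, 1 coefficient per group over all 16 libraries and quasi-likelihood tests of the 4 pairwise comparisons and of the interaction of diet with fasting. P-values were adjusted by Benjamini-Hochberg over all tested genes, with a threshold of 0.05. Residual degrees of freedom were 12 and the common coefficient of variation was 19.1%. Every adjusted p in the text is edgeR's except where another tool is given. CPM was scaled by TMM, and SD is over 4 libraries. Depth of 41364448 to 57583153 counts puts 3 counts at 0.0536 to 0.0767 CPM, which covers counting error only. Exon length is the union of annotated exons. Sequence sharing was counted as exact matches of 100-base windows to annotated nuclear copies. The procedure was run on simulated counts with log2 changes larger than those of most members called here. That run does not cover small changes shared by many genes.

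Members, gene lists and motifs were chosen with earlier results of these data known, and no list was tested as a set. Members named in full were the largest changes per comparison among called genes, those with the lowest interaction p, all mitochondrial-genome members, the tissue-specific complex IV pairs and core subunits; further called genes were named after their values were seen. Alternatives were DESeq2 1.42.0, limma-voom (limma 3.58.1), 4 other scalings, 2 other count filters, GC and length offsets, a replicate block, fits on the compared groups alone, stricter thresholds and each library left out. Leaving out CD fast replicate 2 together with HFD fast replicate 4 was chosen after seeing the data. 1 item is not reported here.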

Additional observations from a re-analysis of the deposited data

Results flagged for a closer look

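In 12 of 176 groups of 4 libraries checked, 1 library lay far from the other 3 (Dixon's test at 95%), where chance gives about 1 in 20 groups. CD fast replicate 2 accounts for 6 of these. It was lowest in mt-Cytb (5440 CPM, the others 9313 to 9678), mt-Nd2 (3698 CPM, the others 6857 to 7477), mt-Atp6 (47.8 CPM, the others 157 to 179) and in the share of counts on mitochondrial-genome members (3.02%, the others 4.72 to 5.03%), and highest in Ndufs7 (94.9 CPM, the others 69.8 to 72.4) and Uqcrfs1 (243 CPM, the others 205 to 210).

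HFD fast replicate 2 was highest in Atp5e (82.9 CPM, the others 65.7 to 66.6) and Ndufa4l2 (1.45 CPM, the others 0.796 to 0.824) and lowest in mt-Co3 (0.430 CPM, the others 0.802 to 0.868). CD fast replicate 1 was highest in Ndufa4l2 (0.778 CPM), CD fast replicate 4 highest in mt-Co2 (22.1 CPM, the others 1.23 to 2.62), and HFD fed replicate 1 lowest in Atp5b (1202 CPM, the others 1270 to 1277).

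The change with fasting differed between CD and HFD by the interaction term in Uqcr10 (-0.44) and Sdhd (-0.40), as given above.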

How the results depend on the processing

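No result changed direction under the alternatives for a called member, but counts of calls depended on the spread, the threshold and single libraries, and the cause was not tested. For HFD in fasted mice, 51 members became 21 with total count scaling, 5 with only the compared groups, 16 without CD fast replicate 2 and HFD fast replicate 4 together, 16 at an adjusted p under 0.01 and 9 with a log2 change of at least 0.5, and 21 to 57 with 1 library left out. For fasting in CD, 18 became 9 without a count filter, 11 with only the compared groups, 2 at an adjusted p under 0.01, 2 at a log2 change of at least 0.5 and 8 to 18 with 1 library left out. For fasting in HFD, 6 became 3 without a count filter, 3 with only the compared groups, 13 with GC and length offsets, 24 with the replicate block and those offsets, 17 with DESeq2, 1 at an adjusted p under 0.01, 2 at a log2 change of at least 0.5 and 2 to 25 with 1 library left out. For HFD in fed mice, 3 became 5 with the replicate block, 0 at an adjusted p under 0.01, 1 at a log2 change of at least 0.5 and 0 to 4 with 1 library left out. For the interaction, 2 became 0 with total count scaling, 1 with upper quartile scaling, 0 without a count filter, 6 at a mean of at least 100 counts, 12 with GC and length offsets, 16 with the replicate block and those offsets, 16 with DESeq2, 0 without CD fast replicate 2 and HFD fast replicate 4 together, 0 at an adjusted p under 0.01, 0 at a log2 change of at least 0.5 and 0 to 6 with 1 library left out; 28 members had an unadjusted p under 0.05.

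Total count scaling moved the nuclear median to -0.18 for HFD in fasted mice and to -0.033 for HFD in fed mice, from 0.08 to 0.04 for fasting in CD (53 members positive in place of 62) and from -0.23 to -0.14 for the interaction (79 members negative in place of 88). It moved the median of all genes to 0.17, 0.08, -0.05 and 0.09 in the same order. With 1 library left out the nuclear median for HFD in fasted mice was -0.39 to -0.29. The nuclear medians for fasting in CD, fasting in HFD and HFD in fed mice were 0.06 to 0.10, -0.23 to -0.12 and -0.13 to -0.08, and the mitochondrial-genome median for fasting in CD was -0.14 to 0.21. Libraries share replicate numbers, and the labels tie them to no shared animal or day. Correlations of same-numbered deviations were 0.052 to 0.11 for fasting in CD and 0.058 to 0.66 for fasting in HFD, all positive, and -0.24 to 0.21 for the diet comparisons. In no comparison were all 4 above 0.1, although 3 of 4 were for fasting in HFD, so that the numbers were not used as pairs and a shared batch was not tested. The replicate block alone gave 55 calls for HFD in fasted mice, all lower, and was above 1.5 times the count without it only for HFD in fed mice. Under it Sdhd lost its interaction call, and mt-Co2 lost its call with HFD in fasted mice.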
